A study of Mus musculus with 6 samples.

Results

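The genes described here are the 3 D cyclins Ccnd1, Ccnd2 and Ccnd3, their partner kinases Cdk4 and Cdk6, the cyclin-dependent kinase (CDK) inhibitors Cdkn1a, Cdkn1b, Cdkn2c and Cdkn2d, and Rb1. They were chosen by name as the G1 machinery of the cell cycle, 10 genes of the 21849 tested, and all 10 passed the filter on low counts. Their mRNA was measured by RNA-seq of polyadenylated RNA in bone marrow-derived dendritic cells (BMDCs), 3 libraries from wild-type (WT) mice and 3 from Nfkb2-/- mice, which lack Nfkb2 in every cell rather than only in dendritic cells (DCs). Bone marrow cells of both genotypes were grown for 9 days, 5 with 20 ng/mL of the growth factor GM-CSF alone and 4 with GM-CSF and 10 ng/mL of the cytokine IL-4. The BMDCs of both genotypes received no stimulus. The labels give no age or sex of the mice, and the libraries come from unsorted cultures. Nfkb2 encodes p100, the precursor of the NF-κB subunit p52 in the noncanonical NF-κB pathway.

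D cyclins are made in response to growth factors and bind CDK4 or CDK6. These kinases then phosphorylate the retinoblastoma protein RB, which lets go of E2F transcription factors and thereby allows the genes of DNA replication to be transcribed. The INK4 inhibitors p18 (Cdkn2c) and p19 (Cdkn2d) bind CDK4 and CDK6 and keep the cyclin away, while p21 (Cdkn1a) and p27 (Cdkn1b) bind complexes of cyclin and kinase. In a GM-CSF culture, dividing myeloid progenitors give rise to DCs that leave the cell cycle.

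The start regions of Ccnd3 and Cdk6 are shown because mRNA of both genes was higher in every Nfkb2-/- library and because NF-κB factors bind a known DNA motif. RefSeq windows of the 250 bases before the transcription start (GRCm38.p6) were present for 7 of the 10 genes, as 10 windows, and no window was used for Ccnd1, Ccnd2 and Rb1. Each window was searched on both strands for GGGNNNNNCC, a loose form of the NF-κB motif, and its matches are in capitals. Overlapping matches are merged. The Cdk6 window, like the downstream Ccnd3 window, lies within the gene coordinates given below, before an internal RefSeq start.
Ccnd3, upstream start, chr17:47504801-47505050, plus strand: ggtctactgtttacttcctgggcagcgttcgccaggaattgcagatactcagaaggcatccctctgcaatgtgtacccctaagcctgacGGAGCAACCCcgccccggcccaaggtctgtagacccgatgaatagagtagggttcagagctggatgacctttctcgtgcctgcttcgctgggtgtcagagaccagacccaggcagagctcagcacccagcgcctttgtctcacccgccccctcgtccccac
Ccnd3, downstream start, chr17:47593217-47593466, plus strand: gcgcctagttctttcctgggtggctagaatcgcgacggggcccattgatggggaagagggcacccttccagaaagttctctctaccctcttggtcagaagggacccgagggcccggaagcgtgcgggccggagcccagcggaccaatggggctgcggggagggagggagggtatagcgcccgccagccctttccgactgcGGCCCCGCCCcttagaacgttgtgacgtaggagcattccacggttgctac
Cdk6, chr5:3343643-3343892, plus strand: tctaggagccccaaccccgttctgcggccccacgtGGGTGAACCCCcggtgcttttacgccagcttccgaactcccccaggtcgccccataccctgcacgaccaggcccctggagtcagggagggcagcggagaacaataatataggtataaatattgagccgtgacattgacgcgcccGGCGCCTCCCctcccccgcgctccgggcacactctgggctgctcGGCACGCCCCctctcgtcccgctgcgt
Both Ccnd3 windows held 1 match, beginning 161 and 50 bases before the start, and the Cdk6 window held 4. The windows of Cdk4 and Cdkn2d, also higher in every Nfkb2-/- library, held 2 and 1 matches and are not printed. Genes whose values overlapped between the genotypes held matches as well. The Cdkn1b window held 1, and 1 window each of Cdkn1a and Cdkn2c held 3 and 5, with none in their other window. Such letters are common, since 45.8% of 32851 windows of this length held them, and 8 of the 10 windows of these genes did. The E2F letters TTNNCGC, found in 17% of all windows, were present for 4 of the 7 genes. They occurred 2 times in the Cdk6 window, 1 time each for Cdk4, Cdkn1a and Cdkn2c, and in neither Ccnd3 window. The letters TCAAAG, which TCF/LEF factors bind and 13.8% of windows held, were present for Cdk4 alone among the 7 genes. These matches are letters in a window and no measurement of binding.

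The deposited counts summed to 43126299, 31622131 and 33211096 for the WT replicates in order of number, and to 29863927, 31622146 and 55623068 for the Nfkb2-/- replicates. Levels are given as CPM, counts scaled to the size of the library with the TMM method. Nfkb2 itself measured 215, 154 and 355 CPM in WT and 44.8, 32.3 and 32.6 CPM in Nfkb2-/- libraries, a log2 fold change of -2.72 (SE 0.33, adjusted p = 0.0307 by edgeR's quasi-likelihood test), so that the labels and the targeted gene point the same way. Markers of DCs were present in every library. Cd74, which chaperones MHC class II molecules, ranged from 1870 to 3690 CPM and H2-Aa, an MHC class II chain, from 1130 to 2060 CPM over the 6 libraries. Other markers of the same list were lower, with Zbtb46 at 115 to 218 CPM and Flt3 at 12.1 to 17 CPM. In a principal component analysis, Nfkb2-/- replicate 1 stood apart on component 1 (score 160, against -56.3 to -9.72 in the others) and held counts on 47952 genes, against 27692 to 33841. WT replicate 3 had the highest score on component 2, 96.4. Without Nfkb2-/- replicate 1 edgeR called no gene of all those tested, so every edgeR call given here, that of Nfkb2 included, was lost without it, while 4088 genes still had an unadjusted p under 0.05. For the 10 genes, values without these libraries are given where they moved a fold change or ratio clearly.

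All 3 D cyclins measured higher in every Nfkb2-/- library than in any WT library. Ccnd3 rose 2.04-fold and passed the test, whereas the larger estimates for Ccnd2 (7.32-fold) and Ccnd1 (3.91-fold) did not pass it with edgeR. The WT libraries differed from each other far more in Ccnd1 and Ccnd2 than in Ccnd3. In bulk RNA, more cells that express a gene and more RNA per cell cannot be told apart.

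Ccnd2 (ENSMUSG00000000184, chr6:127125162-127152193, GRCm38, minus strand), the D cyclin known as a growth factor response gene of blood cells, measured 37.6, 169 and 69.3 CPM in WT replicates 1, 2 and 3. In the Nfkb2-/- libraries it measured 623, 836 and 562 CPM. WT replicate 2 was the highest WT library and still lay below every Nfkb2-/- library. The mean was 92.1 ± 68.7 CPM in WT and 674 ± 144 CPM in Nfkb2-/- (SD, n = 3 each). The log2 fold change was 2.87 (SE 0.54, 95% interval 1.62 to 4.13) with an adjusted p of 0.0571 from edgeR. DESeq2 gave an adjusted p of 5.47e-07 and limma voom 0.0292. Without WT replicate 2 the estimate was 3.66 and passed edgeR's test (adjusted p = 0.00853). The edgeR adjusted p was 0.107 without WT replicate 3 and 0.108 without Nfkb2-/- replicate 1. It was 0.174, 0.222 and 0.186 when WT replicate 1 or Nfkb2-/- replicate 2 or 3 was left out.

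Ccnd1 (ENSMUSG00000070348, chr7:144929931-144939925, minus strand), the D cyclin best known from adherent cells and tumours, measured 19, 25.9 and 6.3 CPM in WT and 60.4, 71.4 and 68.5 CPM in Nfkb2-/- libraries. The Nfkb2-/- values lay close together, and WT replicate 3 was low among the WT values. Its log2 fold change was 1.97 (SE 0.45, 95% interval 0.90 to 3.03, adjusted p = 0.0931 from edgeR). Without WT replicate 3 it was 1.58 and passed the test (edgeR adjusted p = 0.0337). Without WT replicate 2 it was 2.39 and passed as well (edgeR adjusted p = 0.0403). With WT replicate 1 or Nfkb2-/- replicate 2 or 3 left out, the edgeR adjusted p was 0.31, 0.301 and 0.264. Without Nfkb2-/- replicate 1 it was 2.03 with an adjusted p of 0.138 from edgeR.

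Ccnd3 (ENSMUSG00000034165, chr17:47505051-47599691, plus strand), a D cyclin of broad expression in blood cells, measured 36.6, 44.1 and 51.2 CPM in WT and 88.6, 87.4 and 92.6 CPM in Nfkb2-/- libraries. Its values varied least among the D cyclins, with means of 44 ± 7.3 CPM and 89.5 ± 2.71 CPM (SD, n = 3 each). Its log2 fold change was 1.03 (SE 0.16, 95% interval 0.65 to 1.41, adjusted p = 0.0420 from edgeR). The call was lost without Nfkb2-/- replicate 1, 2 or 3 (edgeR adjusted p = 0.0898, 0.217 and 0.187) and without WT replicate 1 (0.193), while the log2 fold change stayed between 0.91 and 1.15 with any library left out. Without WT replicate 3 the edgeR adjusted p was 0.0391.

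**Figure D1:**
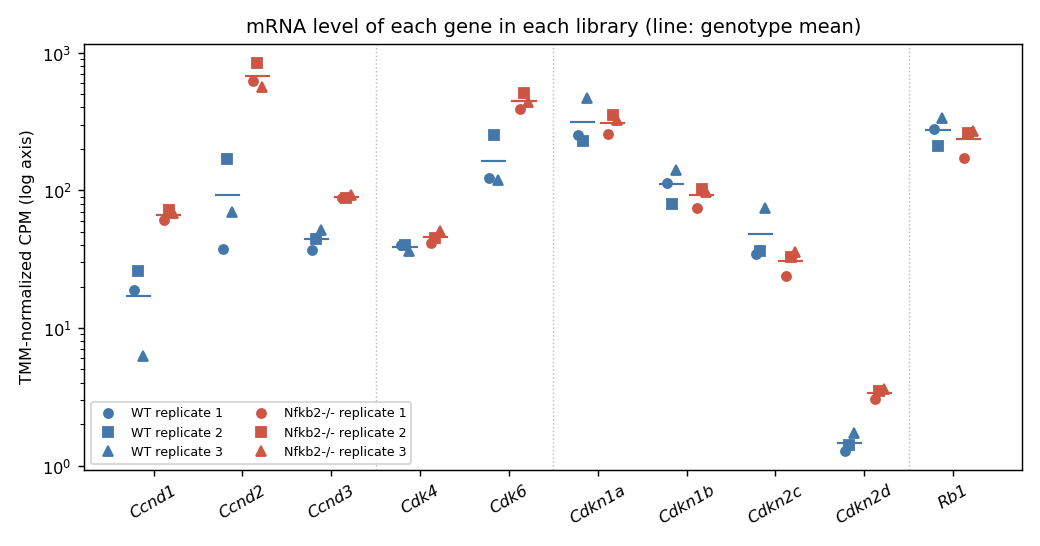
TMM-normalized CPM on a log axis for each of the 10 genes in the 3 WT (blue) and 3 Nfkb2-/- (red) libraries. Symbols mark the replicate and horizontal lines the genotype mean. The values of the 3 D cyclins, Cdk4, Cdk6 and Cdkn2d do not overlap between the genotypes, those of the other 4 genes do.

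Cdk6 measured higher in every Nfkb2-/- library, and Cdk4 was close to level. Cdk6 (ENSMUSG00000040274, chr5:3341485-3531008, plus strand), the partner kinase prominent in blood cells, measured 122, 252 and 118 CPM in WT and 392, 505 and 439 CPM in Nfkb2-/- libraries. As for Ccnd2, WT replicate 2 was the highest WT library. The estimate was a log2 fold change of 1.44 (SE 0.32, 95% interval 0.70 to 2.19, adjusted p = 0.0858 from edgeR). DESeq2 gave an adjusted p of 0.000596. The difference was 2.72-fold. It passed edgeR's test without WT replicate 2 (log2 fold change 1.89). The edgeR adjusted p was 0.00767 without WT replicate 2, 0.13 without WT replicate 3 and 0.119 without Nfkb2-/- replicate 1. Leaving out WT replicate 1 or Nfkb2-/- replicate 2 or 3 gave 0.31, 0.305 and 0.246. Cdk4 (ENSMUSG00000006728, chr10:127063534-127067920, plus strand), the broadly expressed partner kinase, measured 40.2, 40 and 36.5 CPM in WT and 41.3, 45.4 and 50.2 CPM in Nfkb2-/- libraries. These values did not overlap, but the difference was small, with a log2 fold change of 0.23 (95% interval -0.10 to 0.56, adjusted p = 0.461 from edgeR).

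Of the inhibitors, Cdkn2d alone had no overlap between the genotypes, and no inhibitor passed the test with edgeR. Cdkn2d (ENSMUSG00000096472, chr9:21288410-21291407, minus strand) was by far the lowest of the 10 genes, at 1.28, 1.42 and 1.72 CPM in WT and 3.07, 3.46 and 3.61 CPM in Nfkb2-/- libraries. These levels rest on 46 to 193 counts per library. Its log2 fold change was 1.2 (SE 0.25, 95% interval 0.61 to 1.79, adjusted p = 0.0738 from edgeR and 0.00551 from DESeq2). Cdkn2c (ENSMUSG00000028551, chr4:109660876-109667189, minus strand), the other INK4 inhibitor of the set, had an estimate of the opposite sign, at 34.6, 36.2 and 74.3 CPM in WT and 23.8, 32.7 and 35.7 CPM in Nfkb2-/- libraries. Its WT and Nfkb2-/- values overlapped and WT replicate 3 was high. The estimate was a log2 fold change of -0.65 (95% interval -1.42 to 0.11, adjusted p = 0.372 from edgeR), and -0.20 without WT replicate 3.

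Cdkn1a (ENSMUSG00000023067, chr17:29090976-29100727, plus strand), which encodes p21 and is a target of p53, measured 251, 230 and 466 CPM in WT and 256, 352 and 323 CPM in Nfkb2-/- libraries. Its log2 fold change was -0.02, with a 95% interval from -0.71 to 0.66 that leaves room for a change of up to about that size in either direction. Without WT replicate 3, the highest library, the estimate turned to 0.37 (edgeR adjusted p = 0.403). Cdkn1b (ENSMUSG00000003031, chr6:134920401-134925513, plus strand), which encodes p27, measured 113, 79.7 and 141 CPM in WT and 74.4, 103 and 97.6 CPM in Nfkb2-/- libraries. Its log2 fold change was -0.28 (95% interval -0.84 to 0.28, edgeR adjusted p = 0.59). Leaving out a library moved it to between -0.47 (without WT replicate 2) and -0.07 (without WT replicate 3), with -0.16 without Nfkb2-/- replicate 1. Rb1 (ENSMUSG00000022105, chr14:73183673-73325822, minus strand) measured 279, 209 and 334 CPM in WT and 172, 260 and 270 CPM in Nfkb2-/- libraries, with a log2 fold change of -0.23 (95% interval -0.80 to 0.34, edgeR adjusted p = 0.67). It was -0.06 without WT replicate 3 and also -0.06 without Nfkb2-/- replicate 1, and -0.39 without WT replicate 2. The genotypes overlapped for all 3 of these genes.

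**Figure D2:**
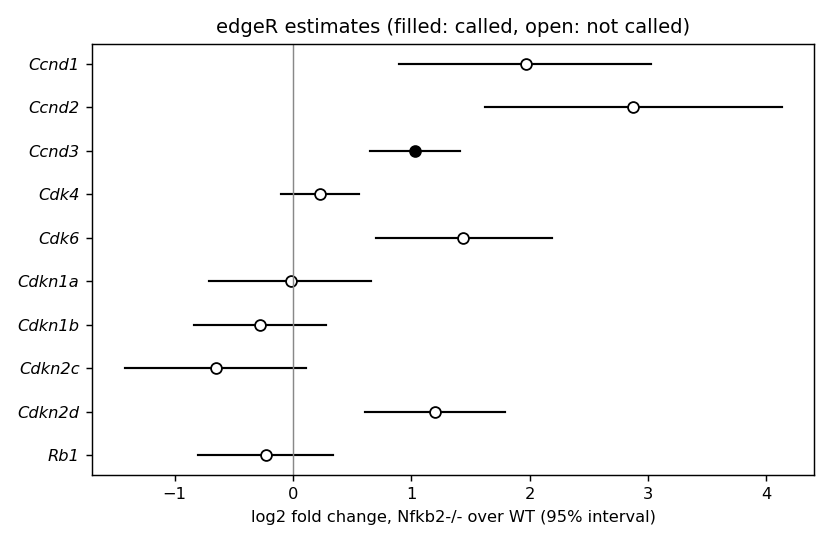
The log2 fold change of each gene, Nfkb2-/- over WT, with its 95% interval from edgeR's fit across all genes. The point of Ccnd3 is filled since it alone was called, and the intervals of Ccnd1, Ccnd2, Ccnd3, Cdk6 and Cdkn2d lie above 0.

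Calling a gene required an edgeR adjusted p under 0.05 together with a fold change above 1.2. By this rule 1 of the 10 genes was called, Ccnd3, and it was higher. Over all genes tested, 1.14% were called in either direction and 0.453% as higher, and the count of 1 among 10 rests on a single gene. DESeq2 called 5 of the 10 genes (Ccnd1, Ccnd2, Ccnd3, Cdk6 and Cdkn2d), against 8.6% of all genes. Limma voom called 4 (the same genes without Cdkn2d), against 2.23% of all genes. An unadjusted p under 0.05 in edgeR was reached by 5 of the 10, against 17.1% of all genes. The genotypes did not overlap for 6 of the 10 genes, all higher in Nfkb2-/-, where 24.7% of all genes showed no overlap and 12.7% no overlap with higher values in Nfkb2-/-. The median log2 fold change was 0.63 over the 10 genes and 0.08 over all genes.

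**Figure D3:**
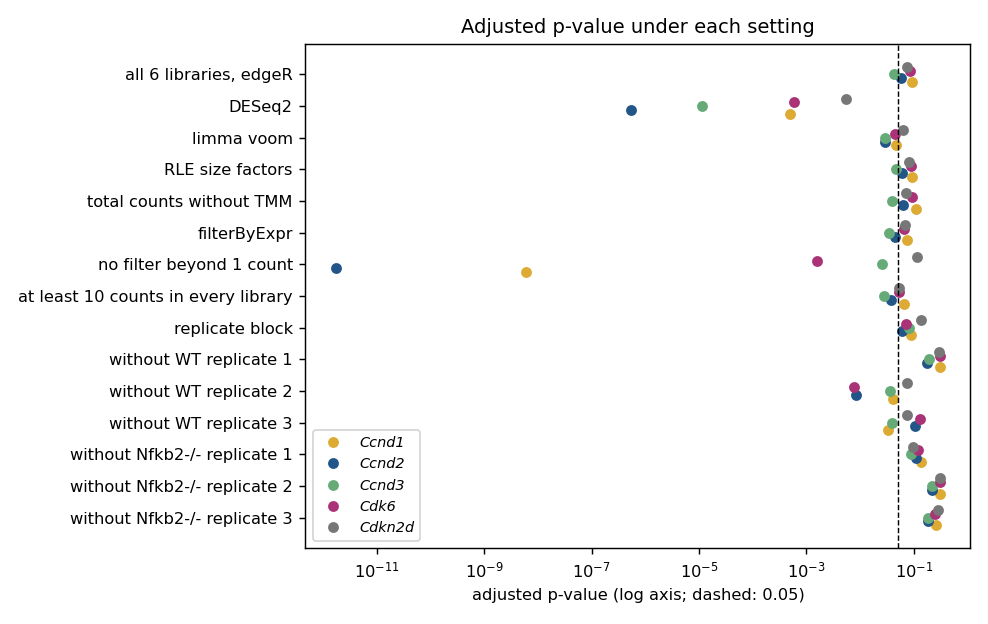
Adjusted p-values on a log axis for Ccnd1, Ccnd2, Ccnd3, Cdk6 and Cdkn2d under each setting, with the threshold of 0.05 dashed. Most points of edgeR with a library left out lie to the right of the line, those of DESeq2 to its left.

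The makeup of the D cyclin mRNA was compared within a library, on CPM per kb of exon. The summed level of the 3 genes was 12.2, 28.5 and 14.5 CPM per kb in WT and 89.1, 114 and 84.8 CPM per kb in Nfkb2-/- libraries. The log2 difference was 2.47, with no overlap (p = 0.1 in a two-sided exact permutation test, the smallest that 3 against 3 libraries can give). Ccnd2 made up 32.8%, 63.1% and 50.7% of this sum in the WT libraries and 74.3%, 78% and 70.4% in the Nfkb2-/- libraries. The share of Ccnd3 was 34.2%, 17.6% and 40.1% in WT and 11.3%, 8.74% and 12.4% in Nfkb2-/-. The share of Ccnd1 overlapped between the genotypes, at 33%, 19.3% and 9.2% in WT and 14.4%, 13.3% and 17.1% in Nfkb2-/-. Nfkb2-/- libraries were thus alike in makeup, while the WT libraries differed from each other.

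Ratios of the counts of a pair of D cyclins within a library do not depend on scaling between libraries, and 3 were tested. The log2 ratio of Ccnd3 to Ccnd2 was lower by 2.09 in Nfkb2-/- (mean -2.89 ± 0.34 against -0.81 ± 1, SD, n = 3 each), without overlap (two-sided exact permutation p = 0.1, adjusted p = 0.15). The log2 ratio of Ccnd1 to Ccnd3 was higher by 1.15 in Nfkb2-/-, also without overlap (two-sided exact permutation p = 0.1, adjusted p = 0.15). Leaving out WT replicate 3 lowered this difference to 0.43, and leaving out WT replicate 2 raised it to 1.56. That of Ccnd1 to Ccnd2 differed by -0.93 with overlap (two-sided exact permutation p = 0.3, adjusted p = 0.3), and by -0.23 without WT replicate 1 and -1.47 without WT replicate 3. None of the 3 could reach a p of 0.05 in this design.

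**Figure D4:**
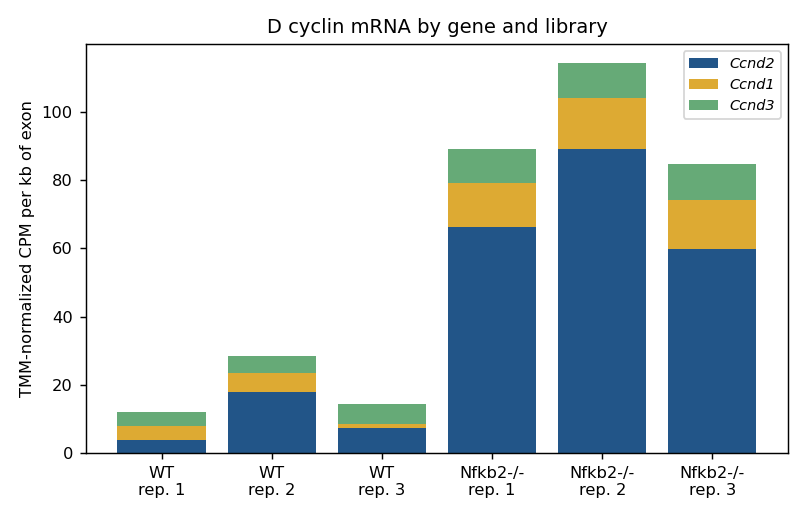
Stacked bars of CPM per kb of exon for Ccnd2, Ccnd1 and Ccnd3 in each of the 6 libraries. The bars of the Nfkb2-/- libraries reach 84.8 to 114 CPM per kb and are mostly Ccnd2, those of the WT libraries reach 12.2 to 28.5.

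Per kb of exon, the order of the levels differed between the genotypes. In WT libraries Cdkn1a was highest, at 88.9 ± 36.8 CPM per kb (SD, n = 3, as for the levels that follow), before Rb1 at 45.6 ± 10.4 and Cdkn1b at 24.5 ± 6.78. Cdkn2c (18 ± 8.38), Cdk4 (12 ± 0.628), Cdk6 (11.7 ± 5.44) and Ccnd2 (9.78 ± 7.3) followed, and the gaps between neighbours from Cdkn1b to Ccnd2 were smaller than the larger SD of the pair. Ccnd3 (5.01 ± 0.832), Ccnd1 (3.62 ± 2.11) and Cdkn2d (0.935 ± 0.143) closed the order in WT, where the values of Ccnd3 and Ccnd1 overlapped. In Nfkb2-/- libraries, Ccnd2, at 71.6 ± 15.3 CPM per kb, stood next to Cdkn1a at 87.4 ± 13.9, and the values of this pair overlapped. Rb1 (38.9 ± 9.01) and Cdk6 (31.8 ± 4.04) came next with overlapping values. Cdkn1b (20.1 ± 3.34) was followed by Ccnd1 (14.2 ± 1.21), Cdk4 (14 ± 1.37), Cdkn2c (11.4 ± 2.3) and Ccnd3 (10.2 ± 0.309), each overlapping its neighbour from Ccnd1 on, with Cdkn2d last at 2.15 ± 0.177. In levels per kb, Cdk6 was below Cdk4 in WT replicates 1 and 3 and above it in WT replicate 2 and every Nfkb2-/- library.

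The other genes of the cell cycle were examined as lists. Of 26 other G1/S regulators, 1 was called, Ccne1, which encodes the cyclin E that activates CDK2. It measured 4.01, 8.49 and 4.99 CPM in WT and 19, 22.4 and 21.6 CPM in Nfkb2-/- libraries, with a log2 fold change of 1.85 (edgeR adjusted p = 0.042). The estimate was higher for 20 of the 26, and 15 did not overlap, 12 higher and 3 lower. Over all 21849 genes, 1.14% were called and 12179 had a higher estimate, while 2777 (12.7%) were higher and 2619 lower without overlap. The most abundant were Rbl2 and Rbl1, relatives of Rb1, and the E2F partner Tfdp2, with log2 fold changes of -0.23, 0.26 and -0.06 (edgeR adjusted p = 0.445, 0.514 and 0.877).

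Of 18 E2F target genes of S phase, 2 were called as higher. Among them was Mcm3, a subunit of the replicative helicase (27.9 to 35.2 CPM in WT, 56.9 to 63.3 CPM in Nfkb2-/-, edgeR adjusted p = 0.042). No overlap and higher values were found for 15 of the 18, and the median log2 fold change was 0.95. DESeq2 called 13. The shares over all genes were 1.14% called, 12.7% higher without overlap and 8.6% called by DESeq2. Of the most abundant members, Rrm1, a subunit of ribonucleotide reductase, and Mcm6 had log2 fold changes of 1.25 and 0.68 (edgeR adjusted p = 0.0708 and 0.0899). Tk1, thymidine kinase, had the only lower estimate of the list, -0.28 (edgeR adjusted p = 0.422).

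Of 14 G2/M genes, all 14 had higher values in Nfkb2-/- without overlap, and their median log2 fold change was 1.72. The test was passed by 2, the mitotic kinase Plk1 (log2 fold change 2.37, edgeR adjusted p = 0.0444) and the spindle checkpoint gene Mad2l1 (1.77, edgeR adjusted p = 0.0494), and DESeq2 called 13, beside the same shares of 12.7%, 1.14% and 8.6% over all genes. Mki67, the proliferation marker Ki-67, measured 58.5, 205 and 27.9 CPM in WT and 240, 354 and 400 CPM in Nfkb2-/- libraries. Top2a, which untangles DNA in dividing cells, measured 33.5, 95.9 and 15.1 CPM in WT and 109, 197 and 216 CPM in Nfkb2-/- libraries. Among the WT libraries, replicate 2 was highest in both genes and replicate 3 lowest, the order that Ccnd1 and Cdk6 also followed, whereas Ccnd2 was lowest in replicate 1 and Ccnd3 highest in replicate 3. The summed level of the 14 genes was 164, 475 and 86.5 CPM in WT and 607, 877 and 979 CPM in Nfkb2-/- libraries. The part of a different share of dividing cells in the D cyclin levels was not tested.

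None of 16 p53 target genes passed edgeR's test. An unadjusted p under 0.05 was reached by 2, DESeq2 called 2 and limma voom 1, and the median log2 fold change was -0.15. No overlap was found for 3, all lower. In all genes, 17.1% reached an unadjusted p under 0.05, DESeq2 called 8.6% and limma voom 2.23%. Of all 21849 genes, 24.7% did not overlap, and 2619 were lower without overlap. Both DESeq2 calls were lower, Gadd45a, a stress response gene (log2 fold change -1.19, edgeR adjusted p = 0.0541), and Fas, a death receptor (-1.45, edgeR adjusted p = 0.121). The most abundant were Ccng1, Trp53inp1 and Mdm2, the ligase that degrades p53, with log2 fold changes of 0.29, -0.38 and 0.17.

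**Figure D5:**
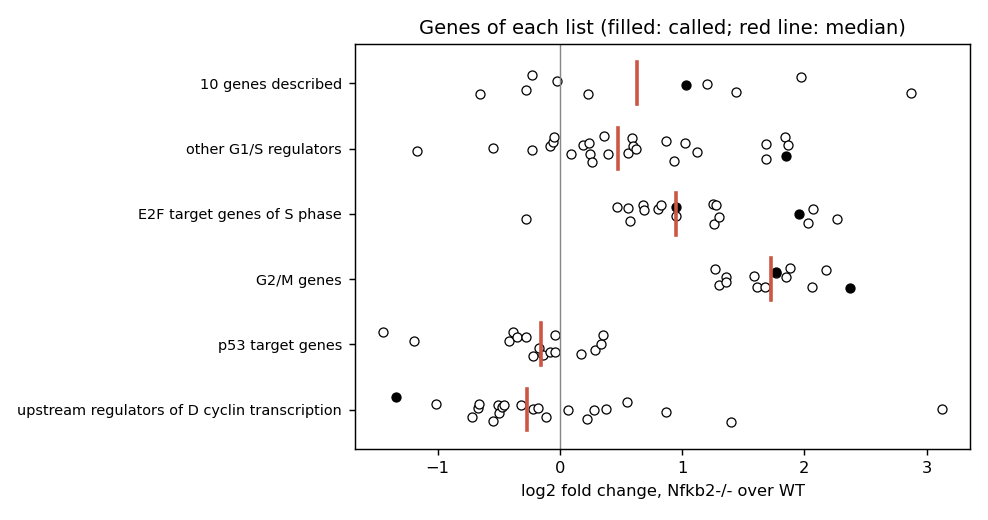
The log2 fold change, Nfkb2-/- over WT, of each tested gene in the 10 genes described and the 5 pathway lists. Filled points were called, red lines are medians, and the vertical scatter within a list has no meaning. All 14 G2/M genes and 17 of 18 E2F targets lie above 0, 4 of 16 p53 targets do.

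Factors known to act on D cyclin transcription mostly had lower estimates in Nfkb2-/- BMDCs. Of 23 such genes 22 were tested and 1 was called, Tcf7, a TCF factor of the Wnt pathway. It measured 84, 61.4 and 108 CPM in WT and 35.1, 30 and 35.1 CPM in Nfkb2-/- libraries (log2 fold change -1.34, edgeR adjusted p = 0.0462). The estimate was lower for 14 of 22, with 8 lower and 3 higher without overlap. Over all 21849 genes tested, 1.14% were called and 9670 had a lower estimate, while 2619 were lower and 2777 higher without overlap. The NF-κB subunit gene Rel, the most abundant, measured 2090, 1720 and 2390 CPM in WT and 1470, 1430 and 1350 CPM in Nfkb2-/- libraries, without overlap (log2 fold change -0.55, edgeR adjusted p = 0.203). Nfkb1 and Stat3, the next in abundance, had log2 fold changes of 0.07 and -0.72 (edgeR adjusted p = 0.899 and 0.263).

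Markers of the cell types a GM-CSF culture can hold were set beside these results. Of 10 DC markers 1 was called, Itgax, the gene of CD11c, at 160, 277 and 123 CPM in WT and 745, 769 and 716 CPM in Nfkb2-/- libraries (log2 fold change 1.99, edgeR adjusted p = 0.0414). An unadjusted p under 0.05 was reached by 5 of the 10, where 17.1% of all genes reached it. The genotypes did not overlap for 4, 3 higher (Itgax, Cd86 and Dcstamp) and 1 lower (Zbtb46, log2 fold change -0.54, edgeR adjusted p = 0.192). Over all genes, 1.14% were called, 24.7% did not overlap and 12.7% were higher without overlap. Ccr7, the chemokine receptor of migrating DCs, had a log2 fold change of -0.97 (edgeR adjusted p = 0.235). Cd74, H2-Aa and Irf4, the most abundant, had log2 fold changes of 0.12, -0.25 and 0.14, and the summed level of the list overlapped between the genotypes (5890 to 10800 and 8060 to 8880 CPM). Of 8 macrophage markers none was called and none was without overlap, and none had an unadjusted p under 0.05. Their sum was 806, 932 and 145 CPM in WT and 583, 564 and 698 CPM in Nfkb2-/- libraries, so that WT replicate 3 was low, as it was in Ccnd1. Csf1r, the receptor for M-CSF, C1qb and Adgre1 led this list, at 37.2, 22.8 and 20.3 CPM in WT replicate 3.

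Progenitor markers differed in direction. Of 8 such genes 6 were tested and none was called by edgeR, 2 had an unadjusted p under 0.05 (17.1% of all genes), and DESeq2 called 2 (8.6% of all genes). Cd34, a surface protein of blood progenitors, measured 1.64, 4.61 and 0.585 CPM in WT and 27.8, 27.7 and 27.1 CPM in Nfkb2-/- libraries (edgeR adjusted p = 0.0536). Sox4, a transcription factor, had the opposite sign, at 369, 175 and 517 CPM in WT and 86.1, 106 and 87.5 CPM in Nfkb2-/- libraries (edgeR adjusted p = 0.0618). Kit, the receptor for stem cell factor, was level, at 37.2 to 43 and 41.2 to 50.5 CPM. The sum of the list was 423, 238 and 569 CPM in WT and 170, 195 and 179 CPM in Nfkb2-/- libraries. Sox4 was the largest part of this sum in every library, and the lower sum in Nfkb2-/- followed Sox4. By estimate, 4 of the 6 tested genes were higher in Nfkb2-/- and 2 lower. The part of progenitors in the D cyclin results was not tested.

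Of 7 neutrophil markers none was called by edgeR, 3 had an unadjusted p under 0.05 (17.1% of all genes) and DESeq2 called 3 (8.6%). Their sum overlapped (84.6 to 238 and 190 to 215 CPM). S100a8 led the list, with a log2 fold change of 0.37. The receptor gene Cxcr2 measured 4.41, 12 and 1.31 CPM in WT and 93.1, 91.5 and 65.1 CPM in Nfkb2-/- libraries (edgeR adjusted p = 0.0568), while the granule gene Ngp had a log2 fold change of -1.81. Of 6 mast cell and basophil markers 5 were tested and 1 was called (1.14% of all genes), Cpa3, a mast cell protease, lower at 1.86 to 2.49 CPM in Nfkb2-/- against 6.31 to 10.8 CPM in WT (edgeR adjusted p = 0.0413). Gata2, a transcription factor, had the opposite sign without overlap, at 0.688 to 1.91 CPM in WT and 3.22 to 4.05 CPM in Nfkb2-/- (log2 fold change 1.47, edgeR adjusted p = 0.119, DESeq2 adjusted p = 0.0151). The sum of the list was at most 15.3 CPM in any library, with Ms4a2 at 0.198 to 1.42 CPM.

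Lymphocyte, stromal and erythroid markers were low, and none of the tested ones had an unadjusted p under 0.05 or was called by DESeq2. The lymphocyte sum was 1.88 to 8.89 CPM, highest in Nfkb2-/- replicate 1, and led by Cd8a with Cd4 at most 1.21 CPM. The stromal sum was 53.5, 13.2 and 0.998 CPM in WT and 25.5, 16 and 5.67 CPM in Nfkb2-/- libraries, led by Col1a2 (0.516 to 28.1 CPM) and Col1a1 (0.206 to 22.7 CPM) with Pdgfrb at most 2.81 CPM. The globin genes Hba-a1 and Hbb-bs were at most 0.0886 CPM, and Alas2, the 1 erythroid marker tested, was level at 3.34 to 5.37 CPM.

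The genes whose levels followed each D cyclin most closely were taken from 10645 genes that averaged 5 CPM or more. These correlations are descriptions over 6 libraries that also differ in genotype and depth. For Ccnd1 they were Epb41l3, Ctps, which makes CTP, and the tubulin gene Tubb4b, with Pearson's r of 0.999, 0.998 and 0.997. For Ccnd2 they were Pi4ka, Tyms, the thymidylate synthase, and Sec13, at 0.999, 0.995 and 0.995. For Ccnd3 they included Gcnt2 and Ccl17, at 0.996 and 0.995. The chemokine gene Ccl17 rose from a mean of 318 to 2400 CPM (log2 fold change 2.92, edgeR adjusted p = 0.0307) and Gcnt2 from 34.6 to 68.8 CPM (0.99, edgeR adjusted p = 0.042), while the genes named for Ccnd1 and Ccnd2 did not pass the test.

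Some of the 10 genes share sequence with a neighbour, and use of strand in the counting is not given in the sources used here. The exons of Ccnd1 overlap 1100 bases of LTO1, which had 2059 counts over the 6 libraries against 9693 of Ccnd1. Those of Ccnd3 overlap 361 bases of Bysl (1155 counts against 15062), and those of Cdk4 overlap 641 bases of Tspan31 (3835 against 9513). Rb1 overlaps Rcbtb2 and Lpar6 by at most 488 bases. How many reads these overlaps moved was not tested.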

How the data were processed

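RNA-seq of 6 BMDC libraries, 3 WT and 3 Nfkb2-/-, was analysed, with groups and replicate numbers taken from the sample labels. The authors deposited raw counts of reads per Ensembl gene and library, and the study describes the RNA-seq data as coming from independent biological replicates. The submitters' processing notes name HISAT2 and GRCm38/mm10. The counting tool, annotation and use of strand are not given in the sources used here. A deposited table joining the libraries was not used.

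The test kept genes named in GENCODE M21 (GRCm38) whose counts summed to 50 or more. IDs without a name, 1.01% to 1.75% of a library's counts, stayed out of library sizes and tests. Counts were normalized with TMM and compared with edgeR 4.0.16 (glmQLFit, glmQLFTest, no covariates, R 4.3.3). The SE is the log2 fold change divided by the square root of F, and 95% intervals use the degrees of freedom of that test. Adjustment was Benjamini-Hochberg over all genes tested. At this depth 3 counts are 0.0539 to 0.1 CPM. Counting error is below the replicate spread for the 10 genes described other than Cdkn2d, where both are of similar size. Exonic lengths, overlaps and coordinates came from GENCODE M21, promoter windows from RefSeq. The deposited files hold Ensembl IDs that GENCODE M21 lacks, so the counts were made with another annotation, and the lengths behind CPM per kb may differ from the exons counted. Scripts were tested on simulated data.

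The 10 genes and all lists were chosen with earlier results of these data known. Named were these 10, Nfkb2, the 3 most abundant and all called genes of each list, and the 3 genes most correlated with each D cyclin over the libraries. Some genes that this rule names are not reported here. Other genes named (Gadd45a, Fas, Zbtb46, Flt3, Ccr7, Cd86, Dcstamp, Hba-a1, Hbb-bs, and the overlapping neighbours) were chosen after their values were seen. Alternatives were DESeq2 1.42.0, limma 3.58.1 voom, other size factors and filters, the replicate number as a block, other thresholds and each library left out.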

Additional observations from a re-analysis of the deposited data

How the results depend on the processing

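The number of genes called, 248 over all genes, 1 among the 10 and 6 among the pathway lists, moved with the setting. In the same order it was 1878, 5 and 38 with DESeq2, 488, 4 and 15 with limma voom, 1625, 4 and 34 with no filter beyond 1 count, and 459, 2 and 10 with at least 10 counts in every library. With filterByExpr it was 397 over all genes and 2 among the 10. With total counts it was 3 in the pathway lists. At an adjusted p under 0.1 it was 808, 5 and 17, and under 0.01 it was 0 for all 3. With a library left out, the calls ranged from 0 to 1248 over all genes, 0 to 4 among the 10 and 0 to 34 in the pathway lists, highest without WT replicate 2 in each case. They were 0 without WT replicate 1 and without any Nfkb2-/- library, where an unadjusted p under 0.05 was still reached by 5 or 6 of the 10 genes, and over all genes by 2325 of 20947 without WT replicate 1 and by 4088 of 19244, 2580 of 21399 and 2726 of 21093 without Nfkb2-/- replicates 1, 2 and 3. With the replicate number as a block, 0 genes were called in all 3 (3331 genes, 6 of the 10 and 48 list genes had an unadjusted p under 0.05), and the adjusted p of Ccnd3 was 0.083. In their deviations from the genotype means, the same-numbered libraries had r of 0.262, 0.148 and 0.0224, the differently numbered ones -0.237 to 0.164. WT replicates 1 and 3 correlated best with the Nfkb2-/- library of their own number, WT replicate 2 with Nfkb2-/- replicate 3. These values do not settle whether the numbers mark pairs, and the main fit did not take them as pairs. The log2 fold change of Cdkn1a turned to 0.03 with limma voom, 0.08 with total counts, 0.04 with the block, 0.09 without Nfkb2-/- replicate 1 and 0.37 without WT replicate 3, the highest of a range that began at -0.21 without WT replicate 2. The other 9 genes kept their direction in all 14 alternatives fitted. Among these alternatives, Ccnd3 was called in 9, Ccnd2 in 6, Ccnd1 in 5, Cdk6 in 4 and Cdkn2d in 1. The log2 fold change ranged from 2.5 to 3.66 for Ccnd2, 1.58 to 2.39 for Ccnd1, 0.91 to 1.15 for Ccnd3, 1.26 to 1.89 for Cdk6 and 1.11 to 1.33 for Cdkn2d. The cause of these changes was not tested. Depth limits Cdkn2d most, with 552 counts over the 6 libraries.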
